A study of Mus musculus with 12 samples.

Results

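The drug-metabolizing enzymes described here were the genes of the deposited tables whose symbol begins with Cyp1 to Cyp4 and a letter, Gsta, Gstk, Gstm, Gsto, Gstp or Gstt and a digit, Ugt1 or Ugt2, Ces1 to Ces5, Aldh1 to Aldh9, Aox1 to Aox4, Sult1 to Sult6 or Ephx1 to Ephx4, or is Fmo followed by 1 digit. This name rule took 136 of the 17920 genes, in 12 families. It used no measured value, but the members were chosen with earlier results of these data known. Of the 136, 80 reached 0.5 FPKM (a read level divided by the length of the gene and the depth of the library, so that genes can be compared) in at least 3 of the 12 libraries and were tested, while 46 stayed below 0.5 FPKM in every library.

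The study gave male BALB/c mice of 6 to 8 weeks lipopolysaccharide (LPS, the endotoxin of Gram-negative bacteria, used to injure the lung), lactoferrin from cattle (bLF, a protein of milk that binds iron), both or neither, and sequenced polyA RNA of whole lung. The control mice carry the treatment label NC, with no vehicle named. The LPS mice received 50 µL of LPS at 1 µg/µL, by a route and on a day that the labels do not state. The bLF mice received 200 mg/kg of bLF per day, and the LPS+bLF mice received both agents. Lungs were taken 14 days into the model from 3 of the 6 mice of each group, so that each library below, named by its group and replicate number, is 1 mouse. No transgene or deletion is named for any group.

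The 12 libraries held between 16714329 and 17820635 counts assigned to genes, and 3 counts, taken as the lowest detectable level, equalled 0.168 to 0.179 CPM. Several libraries stood apart. LPS 1 had the lowest TMM scaling factor (0.8472, against 0.9222 to 1.099 in the others), the lowest level of Scgb1a1, the main secretoglobin of club cells (68089 FPKM), and the highest glucocorticoid target genes (18300 FPKM, against 952 to 2970). Control 2 had the highest Scgb1a1 (1056141 FPKM). The club cell marker list as a whole did not follow this 1 gene: its mean log2 difference from control was 0.43 in LPS 1 and 1.26 in control 2, and was highest in bLF 1 (2.34). Control 1, bLF 1 and LPS+bLF 2 held 4530, 3210 and 11700 summed FPKM of brown and white fat markers, against 37.2 to 155 elsewhere, and LPS+bLF 3 held 4250 FPKM of skeletal muscle markers and 2490 FPKM of basal and squamous epithelium markers, against 11.5 to 187 and 0.61 to 17.8. Lung markers were present in every library: all 12 of the alveolar type 2 markers were detected in each, with sums of 47300 to 180000 FPKM. Hepatocyte markers, the defining genes of the organ where most of these enzymes are best known, summed to 1.01 to 4.32 FPKM. edgeR's quasi-likelihood test called 0 of the 13735 genes tested in each of the 5 comparisons.

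Drug metabolism is usually described in phases. Cytochromes P450 (Cyp), which take electrons from the reductase Por, and the flavin monooxygenases (Fmo) oxidize lipophilic compounds, and aldehyde dehydrogenases (Aldh), aldehyde oxidases (Aox), carboxylesterases (Ces) and epoxide hydrolases (Ephx) oxidize or hydrolyse the products. Glutathione S-transferases (Gst), sulfotransferases (Sult) and UDP-glucuronosyltransferases (Ugt) then attach water-soluble groups. In the lung much of this capacity lies in the club cells of the airway epithelium, and many of the same enzymes also act on retinoids, fatty acids, eicosanoids and other endogenous lipids.

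The promoters of 4 members are shown because their transcripts carry the patterns below: Gsta2 and Ces1g were lower in each LPS library than in any control library, Cyp4v3 was higher in each, and Cyp2e1 followed the fat markers. The windows run 5′ to 3′ from 250 bases before to 50 bases after the start listed with each RefSeq promoter. For Gsta2 that start lies inside the RefSeq gene span. The windows are on the GRCm38.p6 assembly of the C57BL/6J strain, so they are the reference and not the BALB/c sequence. Capitals mark the letters GCGTG (the core bound by the aryl hydrocarbon receptor, AHR) and CCAAT (the CCAAT box) on either strand, the second strand reading CACGC and ATTGG; the marked matches do not overlap. Gsta2 lies at chr9:78347096-78347395 on the minus strand, Ces1g at chr8:93337160-93337459 on the minus strand, Cyp4v3 at chr8:45333114-45333413 on the minus strand and Cyp2e1 at chr7:140763569-140763868 on the plus strand.
Gsta2: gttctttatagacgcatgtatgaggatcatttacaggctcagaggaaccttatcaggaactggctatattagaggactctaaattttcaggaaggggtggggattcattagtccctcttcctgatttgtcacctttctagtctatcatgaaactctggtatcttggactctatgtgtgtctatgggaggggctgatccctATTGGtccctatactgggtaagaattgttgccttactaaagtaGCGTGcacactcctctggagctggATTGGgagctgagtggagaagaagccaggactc
Ces1g: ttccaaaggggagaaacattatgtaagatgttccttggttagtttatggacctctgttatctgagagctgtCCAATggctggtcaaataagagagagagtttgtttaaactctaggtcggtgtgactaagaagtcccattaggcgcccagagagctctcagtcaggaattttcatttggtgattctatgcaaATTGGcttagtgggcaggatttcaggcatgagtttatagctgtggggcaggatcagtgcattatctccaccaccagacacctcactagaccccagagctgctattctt
Cyp4v3: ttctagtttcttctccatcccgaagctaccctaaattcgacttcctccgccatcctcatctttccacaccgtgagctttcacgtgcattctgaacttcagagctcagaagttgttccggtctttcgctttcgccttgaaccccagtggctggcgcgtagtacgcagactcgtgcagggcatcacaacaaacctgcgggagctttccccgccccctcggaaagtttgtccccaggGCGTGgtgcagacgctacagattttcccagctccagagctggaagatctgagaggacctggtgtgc
Cyp2e1: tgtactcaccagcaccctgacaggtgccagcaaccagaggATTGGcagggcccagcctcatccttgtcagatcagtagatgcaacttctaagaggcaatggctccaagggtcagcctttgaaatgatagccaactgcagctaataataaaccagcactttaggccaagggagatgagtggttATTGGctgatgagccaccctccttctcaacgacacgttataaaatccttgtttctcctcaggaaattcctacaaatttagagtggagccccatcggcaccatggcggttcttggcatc
Gsta2 held 1 AHR core and 2 CCAAT letters, Ces1g and Cyp2e1 held 2 CCAAT letters each, and Cyp4v3 held 1 AHR core and no CCAAT. RefSeq promoters of this 300-base length were given for 64 of the 80 tested members, 76 windows in all. The AHR core stood in 34.2% of them, against 32.4% of all 32851 promoters of the table. The antioxidant response element letters TGACNNNGC, bound by NRF2, stood in 10.5%, against 12.4%, and CCAAT in 64.5%, against 37.4%. The 32851 promoters were not limited to tested genes, and some members gave more than 1 of the 76 windows. The shares thus compare unlike sets. A match is a description of these letters in this window.

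Levels spanned more than 3 orders of magnitude. The members took 0.813%, 1.35% and 1.08% of the counts in control 1, 2 and 3, 0.457%, 0.695% and 0.879% in LPS 1, 2 and 3, 1.02%, 0.952% and 1.24% in bLF 1, 2 and 3, and 0.890%, 0.888% and 0.787% in LPS+bLF 1, 2 and 3. LPS 1 and LPS 2 thus held the lowest shares, while LPS 3 lay above the lowest control library. A single gene, Cyp2f2, made up 8.58% of the members' counts in LPS 1 and 44.7% in control 2. In FPKM, 14 members averaged at least 100, led by Cyp2f2, Gstp1 (mean 1010 FPKM), Gstm1 (794), Gstm2 (465), Aldh2 (277) and Aldh1a1 (262). Among the 71 members with a mean of at least 1 FPKM the steadiest across all 12 libraries were Cyp2j6 (highest library over lowest 1.42), Aldh3b1 (1.59) and Aldh2 (1.57), and among the most variable were Cyp2e1 (383), Ephx2 (153), Ces1f (97.8) and Cyp2a5 (72.2). The ratio is undefined for members listed at 0 in a library, such as Aldh3b2.

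**Figure D1:**
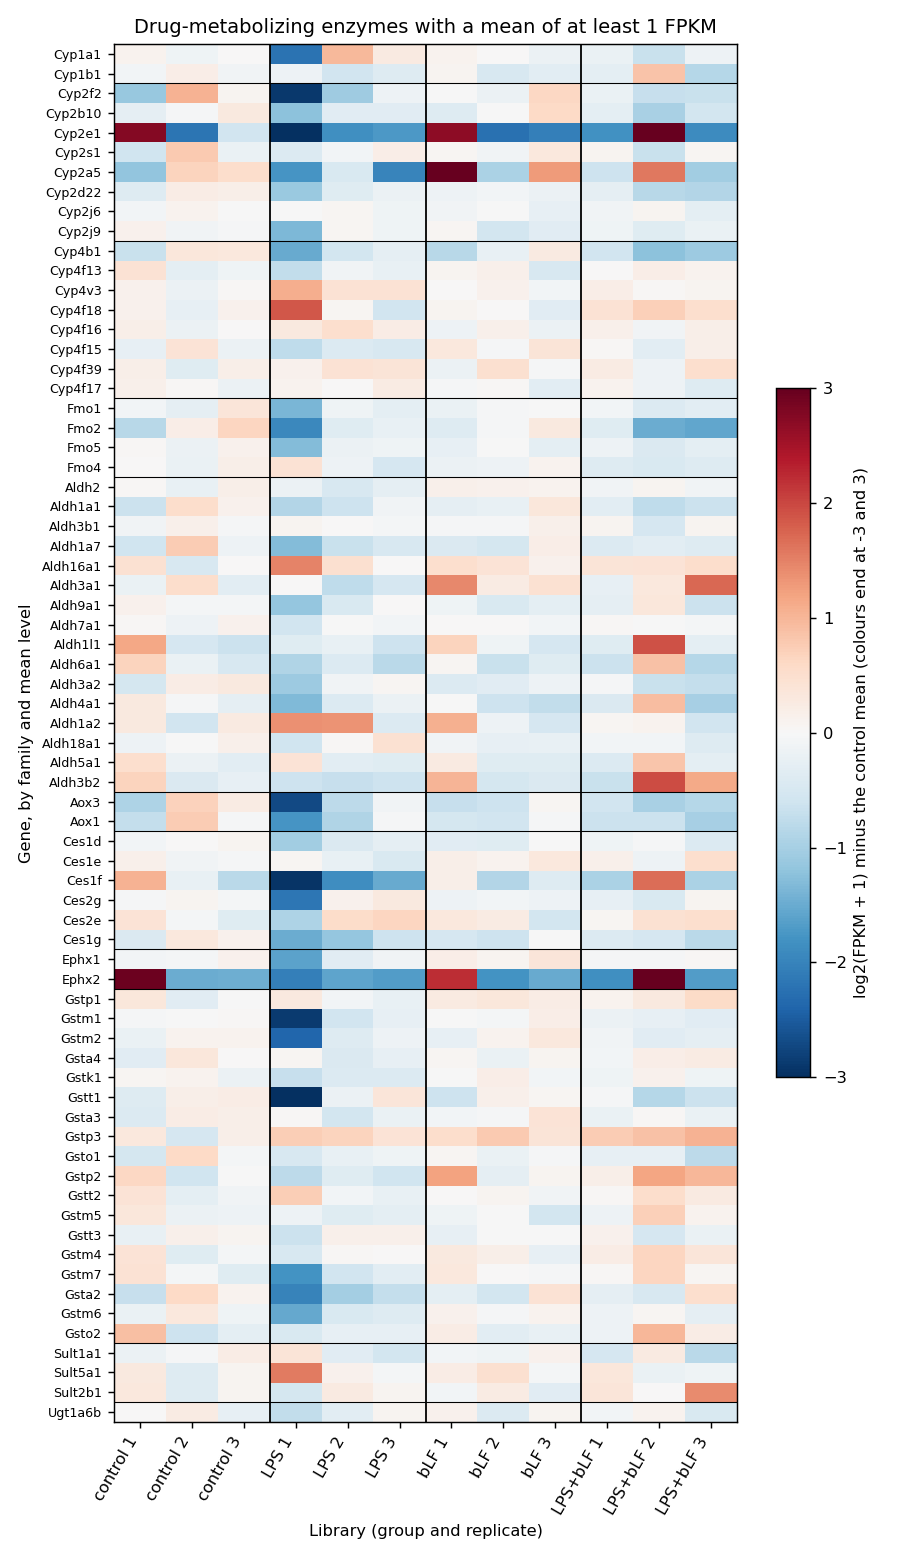
Each row is 1 of 70 members with a mean of at least 1 FPKM, ordered by family and mean level, and each column is 1 library. Colours give log2(FPKM + 1) minus the mean of the 3 control libraries (red higher, blue lower, colours ending at −3 and 3); LPS 1 is the bluest column, and Cyp2e1 and Ephx2 are red in control 1, bLF 1 and LPS+bLF 2.

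The first comparison asked what LPS did to these enzymes. Most of them were lower in LPS-treated than in control lung, across the P450s of family Cyp2, the Fmo, Aox, Ces and Ephx enzymes and the mu and alpha class glutathione transferases, but no member passed the test after adjustment. Of the 80 tested members, 61 had a negative and 19 a positive log2 fold change, with a median of −0.47, against a median of −0.04 and 54.3% negative over all 13735 genes. The members' count with a negative sign lay between 57 and 62 under the other count scalings tried. edgeR called 0 members at an adjusted p under 0.05, as it called 0.0% of all genes, and the smallest adjusted p among the members described here was 0.411, for Ces1g. At an unadjusted p under 0.05, 12 members (15%) were lower, against 1.72% of all genes, and 4 (5.0%) were higher, against 5.43%. DESeq2 called 2 members, among them Ces1g (adjusted p 0.0423), and 1.05% of all genes, and limma on log2(FPKM + 1) called 0 members and 0.0146% of all genes.

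In the same comparison, 14 members (17.5%) were lower in each LPS library than in any control library, against 3.92% of all genes, among them Aldh3b2, Ces1d, Ces1f, Ces1g, Cyp1b1, Cyp2b10, Cyp4f15, Ephx1, Ephx2, Gsta2, Gstk1, Gstm1 and Gstm6. Cyp4f16, Cyp4v3 and Gstp3 (3 members, 3.75%, against 4.0% of all genes) were higher in each. The count of members lower at an unadjusted p under 0.05 depended on single libraries: it was 18 without control 1 (2.63% of all genes), 7 without LPS 1 (1.17%), 4 without control 2 (0.997%), 6 without LPS 2 (2.14%) and 20 without LPS 3 (5.61%). The count of 4 higher members ran from 2 without control 3 (3.5% of all genes) to 7 without LPS 3 (11.3%). Without LPS 1, 64 members had a negative fold change and 4 were higher at an unadjusted p under 0.05 (3.83% of all genes). Without control 2, 52 had a negative fold change and the median was −0.25.

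The 3 LPS libraries were not alike. The median member lay 0.72, 0.45 and 0.21 below the control mean on the log2 scale in LPS 1, 2 and 3. The same measure was −0.18, 0.06 and −0.25 in LPS+bLF 1, 2 and 3, so LPS+bLF 3 lay below LPS 3. LPS 1 was the lowest of the 12 libraries for 48 members (60.0%), against 44.1% of all tested genes. In LPS 1 the summed neutrophil markers were also the highest (2090 FPKM, against 299 to 890 in the other libraries), the ciliated cell markers the lowest (592 FPKM, against 1310 to 2280) and the cytotoxic lymphocyte markers the lowest (25.4 FPKM, against 584 in LPS 2 and 537 in LPS 3). Their part in the members' values was not tested. In whole lung, fewer cells of a type and less RNA per cell cannot be told apart. Nothing in the labels ties the libraries to separate experiments, so p-values measure only the spread between these mice.

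Cyp2f2, the P450 of club cells that activates naphthalene, was the most abundant member. It stood at 835, 3817 and 1959 FPKM in control 1, 2 and 3 and at 245, 885 and 1664 FPKM in LPS 1, 2 and 3. The bLF libraries had 1826, 1621 and 2816 FPKM and the LPS+bLF libraries 1609, 1143 and 1158 FPKM. The control and LPS ranges overlapped, and the control libraries alone differed more than the group means did. LPS over control was, on the log2 scale, −1.32 ± 0.64 (SE; adjusted p 0.676) with all libraries, −0.89 ± 0.59 without LPS 1 and −0.53 ± 0.61 without control 2, the library with the highest Scgb1a1. Like Cyp2f2, Scgb1a1 was lowest in LPS 1 and highest in control 2, and its part in the difference was not tested.

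The Cyp2 enzymes were mostly lower with LPS: 8 of the 9 tested, Cyp2f2 included, had a negative log2 fold change, with a median of −0.59. Cyp2b10, the mouse P450 best known as a target of the receptor CAR, had 111, 131 and 166 FPKM in the controls and 56.5, 105 and 106 in the LPS libraries, so that the groups did not overlap (log2 fold change −0.59 ± 0.29, adjusted p 0.676). Its LPS+bLF values, 109, 67.8 and 91.1 FPKM, overlapped the LPS values. Cyp2d22 had 9.79, 15.3 and 14.8 FPKM in the controls, 5.52, 9.92 and 11.4 with LPS, 11.6, 12.25 and 11.5 with bLF and 10.7, 6.96 and 6.70 with both. It was lower in LPS than in control by −0.57 ± 0.26 (adjusted p 0.676) and lower in LPS+bLF than in control by −0.69 ± 0.26 (unadjusted p 0.0222, adjusted p 0.832). Cyp2j6, by contrast, lay between 3.02 and 4.29 FPKM in all 12 libraries, with a log2 fold change of 0.00 ± 0.20.

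In the Cyp1 family, Cyp1a1, the P450 most responsive to AHR, split the LPS group. It had 24.0, 20.2 and 22.3 FPKM in the controls, 3.99, 44.0 and 26.9 in LPS 1, 2 and 3, 23.8, 22.2 and 19.5 with bLF and 19.15, 13.6 and 19.7 with LPS+bLF. LPS 1 was the lowest library of the study and LPS 2 and LPS 3 were the highest. With all libraries the log2 fold change of LPS over control was 0.13 ± 0.52, and without LPS 1 it was 0.62 ± 0.19 (unadjusted p 0.00941, adjusted p 0.497). Without LPS 1, LPS+bLF was lower than LPS by −0.91 ± 0.19 (unadjusted p 0.000807, adjusted p 0.516), against −0.42 ± 0.52 with it. Cyp1b1, a related AHR-responsive P450, stood at 1.18, 1.66 and 1.15 FPKM in the controls and at 1.09, 0.55 and 0.76 with LPS, with no overlap (log2 fold change −0.69 ± 0.72, adjusted p 0.719). Its LPS+bLF values were 0.90, 3.17 and 0.29 FPKM.

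Family Cyp4, whose enzymes hydroxylate fatty acids and leukotrienes, had a median of 0.28 with LPS, against −0.59 in Cyp2. Of its 8 tested members 5 were higher (37.5% lower, against 54.3% of all genes). Its most abundant members, Cyp4b1 and Cyp4f13, were lower (−0.77 and −0.33). Cyp4v3, the mouse counterpart of a fatty acid hydroxylase mutated in a human crystalline retinal dystrophy, had 14.6, 11.8 and 13.8 FPKM in the controls and 29.3, 18.3 and 18.2 in the LPS libraries. The bLF libraries had 13.6, 14.6 and 12.6 FPKM and the LPS+bLF libraries 15.5, 13.7 and 14.3. Every LPS library was above all 9 others. The log2 fold change was 0.82 ± 0.24 for LPS over control (unadjusted p 0.00607, adjusted p 0.468) and −0.65 ± 0.24 for LPS+bLF over LPS (unadjusted p 0.0209, adjusted p 0.684). Without LPS 1 these values were 0.40 ± 0.10 and −0.23 ± 0.10.

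Cyp4f16 followed the same order, with 14.5, 11.2 and 13.0 FPKM in the controls, 15.9, 18.7 and 15.1 with LPS, 11.4, 14.3 and 11.2 with bLF and 14.3, 11.8 and 14.6 with LPS+bLF. All 3 LPS libraries were above all controls and above all LPS+bLF libraries (log2 fold changes 0.41 ± 0.15, adjusted p 0.632, and −0.30 ± 0.15, adjusted p 0.684). Cyp4f18, a leukotriene B4 hydroxylase of neutrophils, had 40.9 FPKM in LPS 1, the library with the highest neutrophil markers, against 10.96 and 6.74 in LPS 2 and 3 and 8.63 to 11.5 in the controls. Its LPS+bLF values, 14.4, 17.8 and 15.2 FPKM, were above every control. Cyp4f15 lay on the other side, with 8.59, 14.0 and 9.0 FPKM in the controls, 5.67, 7.51 and 7.06 with LPS, 13.0, 10.1 and 13.7 with bLF and 10.6, 8.01 and 11.7 with LPS+bLF (LPS over control −0.65 ± 0.27, adjusted p 0.665). Cyp4f13 had 55.6, 32.9 and 37.1 FPKM in the controls, 24.0, 38.1 and 34.8 with LPS, 43.2, 45.4 and 29.2 with bLF and 41.5, 46.6 and 44.2 with LPS+bLF, where each library exceeded each LPS library (0.44 ± 0.19, adjusted p 0.684). Cyp4f13, Cyp4f15 and Cyp4f16 lie in 1 cluster on chromosome 17, and Cyp4f18 lies on chromosome 8.

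Cyp4b1, a P450 with high expression in mouse lung, had 96.5, 195 and 193 FPKM in the controls, 53.7, 104 and 128 with LPS, 86.0, 131 and 185 with bLF and 102, 65.1 and 71.5 with LPS+bLF. The LPS group overlapped the controls through control 1. The log2 fold change was −0.77 ± 0.38 for LPS (adjusted p 0.676) and −1.0 ± 0.38 for LPS+bLF over control (unadjusted p 0.0236, adjusted p 0.832), and the latter was −0.76 ± 0.41 without control 2. The only tested member of family Cyp3, Cyp3a13, averaged 1.08 FPKM in control, 1.22 with LPS, 0.863 with bLF and 0.793 with LPS+bLF, and each LPS+bLF library was below each LPS library (−0.70 ± 0.31, adjusted p 0.684).

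**Figure D2:**
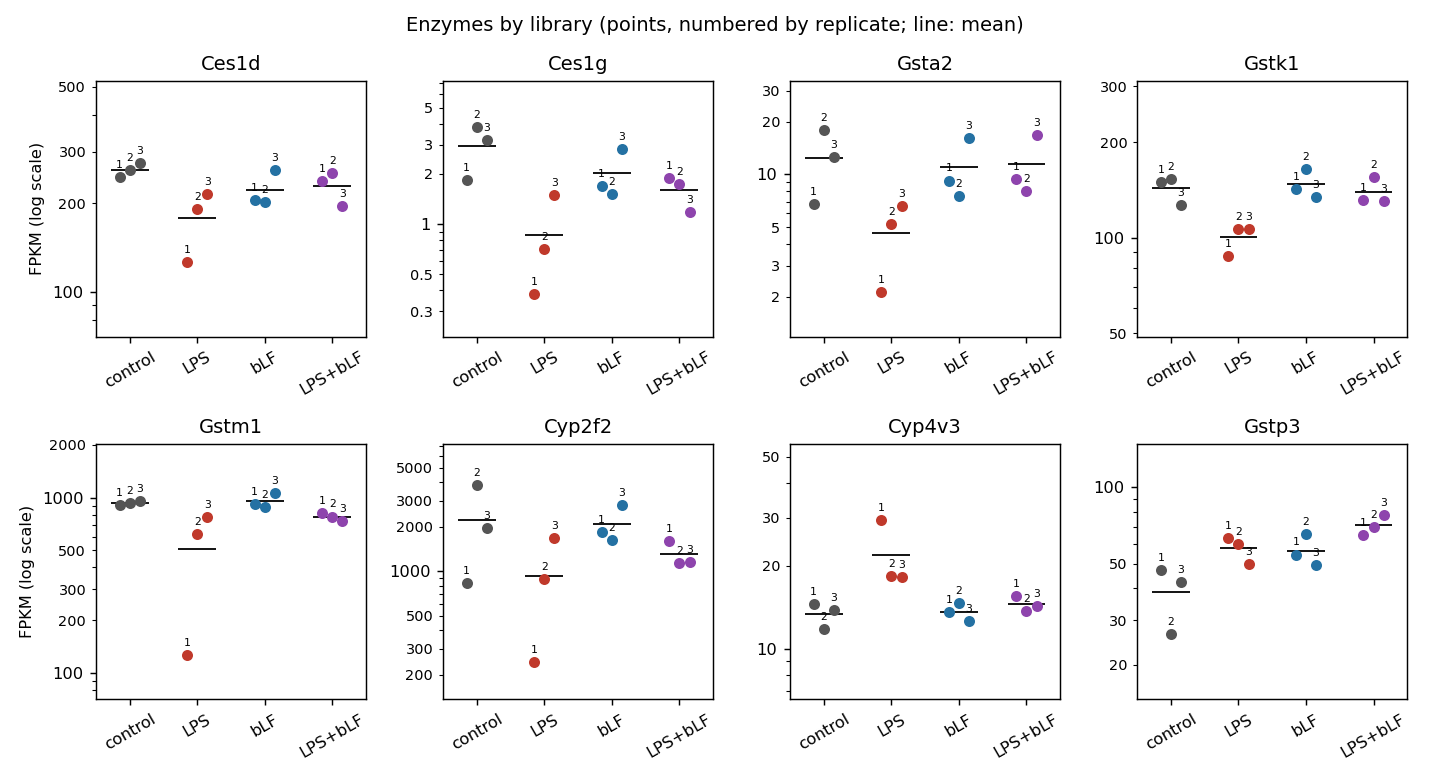
Each panel plots 1 enzyme: FPKM on a log scale against group, with a point for each library, numbered by replicate, and a line at the group mean. The LPS libraries of Ces1d, Ces1g, Gsta2, Gstk1 and Gstm1 lie below all controls, those of Cyp4v3 and Gstp3 above all controls, and those of Cyp2f2 overlap the controls; LPS 1 is far below LPS 2 and LPS 3 for Gstm1 and Cyp2f2.

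Of the 5 tested flavin monooxygenases, 4 had a negative log2 fold change with LPS (median −0.53). Fmo1 and Fmo2 were the most abundant of them. Fmo1 had 151, 133 and 207 FPKM in the controls, 61.2, 146 and 131 with LPS, 139, 158 and 161 with bLF and 152, 121 and 129 with LPS+bLF. Its LPS group overlapped the controls through LPS 2, and the log2 fold change of −0.53 ± 0.24 (adjusted p 0.676) was −0.29 ± 0.18 without LPS 1. Fmo2, the classical lung form, had 42.3, 87.2 and 119 FPKM in the controls, 19.3, 59.4 and 64.8 with LPS, 57.6, 73.8 and 94.0 with bLF and 58.9, 26.4 and 25.2 with LPS+bLF. LPS+bLF was below control by −1.15 ± 0.48 (unadjusted p 0.0360, adjusted p 0.832), with overlap through control 1. Fmo1, Fmo2 and Fmo4 lie side by side on chromosome 1 (GRCm38.p6, chr1:162793188-162898758); Fmo4 differed by 0.08 ± 0.35 between LPS and control and Fmo5, on chromosome 3, by −0.49 ± 0.27.

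Of the aldehyde dehydrogenases, 13 of 17 tested had a negative log2 fold change with LPS (median −0.40). Aldh2, the mitochondrial enzyme that clears acetaldehyde, had 295, 245 and 321 FPKM in the controls, 254, 205 and 237 with LPS, 315, 314 and 309 with bLF and 264, 301 and 265 with LPS+bLF. LPS 1 overlapped the controls and each LPS+bLF library was above each LPS library (LPS over control −0.23 ± 0.20, LPS+bLF over LPS 0.23 ± 0.20, adjusted p 0.801). Aldh1a1, which makes retinoic acid from retinal, had 195, 441 and 335 FPKM in the controls, 167, 198 and 283 with LPS, 255, 262 and 391 with bLF and 246, 179 and 196 with LPS+bLF. Control 1 fell within the LPS range, and the fold change was −0.57 ± 0.33 (adjusted p 0.676). Its neighbour Aldh1a7 was lower by −0.93 ± 0.37 (unadjusted p 0.0280, adjusted p 0.663). Aldh3b1 lay between 47.0 and 74.8 FPKM in all libraries, with a fold change of 0.06 ± 0.21.

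Of the 4 aldehyde dehydrogenases with a positive fold change, Aldh16a1 was highest in LPS 1. It had 29.6, 14.9 and 21.6 FPKM in the controls and 61.4, 29.9 and 21.5 in LPS 1, 2 and 3, with bLF values of 30.7, 28.8 and 23.2 and LPS+bLF values of 28.1, 28.6 and 31.3. Its fold change of 0.92 ± 0.39 (unadjusted p 0.0383, adjusted p 0.674) was 0.18 ± 0.21 without LPS 1. Aldh1a2, another maker of retinoic acid, had 2.09, 0.69 and 2.02 FPKM in the controls, 5.51, 5.41 and 0.90 with LPS, 4.23, 1.25 and 0.78 with bLF and 1.61, 1.69 and 0.69 with LPS+bLF. LPS 3 lay inside the range of every other group, and neither the LPS (1.43 ± 0.77, adjusted p 0.676) nor the LPS+bLF difference (−1.60 ± 0.77, adjusted p 0.684) passed the test.

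Both tested aldehyde oxidases, molybdenum enzymes of neighbouring genes on chromosome 1, were lower with LPS. Aox3 had 5.18, 18.1 and 12.9 FPKM in the controls, 0.80, 5.89 and 9.89 with LPS, 6.29, 6.68 and 11.4 with bLF and 6.87, 4.98 and 5.55 with LPS+bLF. Aox1 had 1.81, 6.79 and 3.49 FPKM in the controls, 0.36, 1.45 and 3.49 with LPS, 2.21, 2.1 and 3.5 with bLF and 1.93, 1.97 and 1.32 with LPS+bLF. Control 1 was low for both, so the groups overlapped, and the fold changes were −1.20 ± 0.65 and −1.26 ± 0.66 (adjusted p 0.676 for each).

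The tested carboxylesterases of the Ces1 cluster, Ces1d to Ces1g (GRCm38.p6, chr8:93166072-93337209), were mostly lower with LPS. Ces1d, an esterase and triacylglycerol lipase abundant in lung, had 246, 261 and 275 FPKM in the controls, 126, 192 and 216 with LPS, 206, 203 and 259 with bLF and 239, 254 and 196 with LPS+bLF (LPS over control −0.52 ± 0.20, unadjusted p 0.0215, adjusted p 0.646). Ces1g, a related lipid esterase, had 1.83, 3.80 and 3.19 FPKM in the controls, 0.38, 0.71 and 1.49 with LPS, 1.70, 1.51 and 2.83 with bLF and 1.89, 1.73 and 1.18 with LPS+bLF. In both genes every LPS library was below every control library. For Ces1g the log2 fold change was −1.78 ± 0.49 (unadjusted p 0.00386, adjusted p 0.411), between −2.41 and −1.45 when any 1 library was left out, and DESeq2 gave −1.76 with an adjusted p of 0.0423.

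Ces1f had 19.9, 7.59 and 4.71 FPKM in the controls, 0.32, 1.77 and 2.54 with LPS, 10.3, 4.48 and 6.66 with bLF and 4.21, 31.3 and 4.22 with LPS+bLF. The LPS libraries were the lowest 3, and control 1, bLF 1 and LPS+bLF 2, the libraries rich in fat markers, were the highest 3. The fold changes were −2.77 ± 0.92 for LPS over control (unadjusted p 0.0118, adjusted p 0.568) and 3.19 ± 0.93 for LPS+bLF over LPS (unadjusted p 0.00574, adjusted p 0.684). Without those 3 libraries, a choice made after seeing the data, they were −2.05 ± 0.62 and 1.48 ± 0.62. Ces1e, between Ces1d and Ces1f, had 10.2, 8.38 and 8.81 FPKM in the controls and 9.5, 7.62 and 6.42 with LPS (−0.13 ± 0.24, adjusted p 0.821). Over the family, 6 of 7 tested Ces members were lower with LPS, and 7 of 7 were higher in LPS+bLF than in LPS, with medians of −0.52 and 0.40. For Ces2e and Ces2g the latter sign rested on LPS 1 (1.04 and 0.72 FPKM), as LPS 2 and LPS 3 exceeded every LPS+bLF library. For Ces2g, LPS 2 and LPS 3 also exceeded every control.

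Ephx1, the microsomal epoxide hydrolase, had 194, 198 and 225 FPKM in the controls, 66.8, 162 and 189 with LPS, 234.7, 219 and 265 with bLF and 199, 200 and 209 with LPS+bLF. Every LPS library was below every control and every LPS+bLF library, although LPS 3 came close to the lowest of each. The log2 fold changes were −0.56 ± 0.26 for LPS over control (adjusted p 0.676) and 0.58 ± 0.26 for LPS+bLF over LPS (unadjusted p 0.0472, adjusted p 0.684), and −0.27 ± 0.16 and 0.30 ± 0.16 without LPS 1. Ephx2, the soluble epoxide hydrolase of eicosanoid epoxides, is described with the fat-rich libraries below.

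In the glutathione transferases, 15 of 19 tested members had a negative log2 fold change with LPS (median −0.33) and 16 of 19 a positive one for LPS+bLF over LPS (median 0.52). Gstm1 had 905, 929 and 957 FPKM in the controls, 127, 624 and 778 in LPS 1, 2 and 3, 922, 889 and 1068 with bLF and 819, 780.2 and 734 with LPS+bLF. The controls lay close together and every LPS library was below them, LPS 1 the furthest. The log2 fold change was −0.89 ± 0.42 (adjusted p 0.676) and, without LPS 1, −0.46 ± 0.18 (unadjusted p 0.0265, adjusted p 0.817). Gstm2 had 455, 567 and 566 FPKM in the controls, 101, 402 and 472 with LPS, 445, 570.1 and 652 with bLF and 493, 418 and 433 with LPS+bLF, and its LPS range overlapped the controls through LPS 3. Gstm7 had 16.1, 11.1 and 8.83 FPKM in the controls, 2.65, 7.55 and 9.17 with LPS, 14.8, 11.8 and 11.4 with bLF and 11.9, 18.7 and 12.3 with LPS+bLF. Its LPS+bLF libraries were all above the LPS libraries (1.16 ± 0.36, unadjusted p 0.00845, adjusted p 0.684).

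Gstk1, the mitochondrial and peroxisomal transferase, was lower in the LPS libraries than in all others. It stood at 149, 153 and 126 FPKM in the controls, 87.7, 106 and 106 with LPS, 142, 164 and 135 with bLF and 131, 155 and 131 with LPS+bLF. All 3 LPS libraries were below all 9 others, and leaving out LPS 1 moved the log2 fold change only from −0.46 ± 0.16 to −0.48 ± 0.17. The adjusted p was 0.606 for LPS over control and 0.684 for LPS+bLF over LPS (0.46 ± 0.16). Gsta2, an alpha class transferase, had 6.77, 17.98 and 12.6 FPKM in the controls, 2.13, 5.20 and 6.63 with LPS, 9.23, 7.56 and 16.1 with bLF and 9.39, 8.08 and 16.8 with LPS+bLF. Its LPS libraries were the lowest 3 of the 12 (−1.44 ± 0.50 over control, unadjusted p 0.0153, adjusted p 0.605, and 1.32 ± 0.50 for LPS+bLF over LPS, unadjusted p 0.0231, adjusted p 0.684). Of the 50-base stretches of its transcripts, 49.8% also occur in transcripts of other genes, 36.0% in Gsta1, so its level is uncertain where the authors' counting split reads.

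Of the 3 pi class transferases, Gstp1 and Gstp3 had a positive and Gstp2 a negative fold change with LPS. Gstp1 had 1136, 710.5 and 886 FPKM in the controls, 1101, 842 and 769.7 with LPS, 1069.95, 1129.8 and 1041 with bLF and 963, 1089 and 1327 with LPS+bLF (LPS over control 0.12 ± 0.25). Gstp3 had 47.1, 26.4 and 42.3 FPKM in the controls, 63.0, 59.9 and 50.0 with LPS, 54.4, 65.3 and 49.3 with bLF and 64.8, 70.04 and 78.1 with LPS+bLF. Each of the 9 treated libraries exceeded all 3 controls. The log2 fold change over control was 0.70 ± 0.21 with LPS (unadjusted p 0.0071, adjusted p 0.495), 0.59 ± 0.21 with bLF (unadjusted p 0.0178, adjusted p 1.0) and 0.95 ± 0.21 with both (unadjusted p 0.000982, adjusted p 0.832). The 3 values share the control libraries, of which control 2 was the lowest; without it they were 0.55 ± 0.21, 0.43 ± 0.21 and 0.79 ± 0.21.

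Gstp2 had 53.0, 22.1 and 33.5 FPKM in the controls, 19.3, 26.0 and 22.1 with LPS, 79.3, 27.9 and 36.2 with bLF and 38.5, 79.1 and 68.7 with LPS+bLF. LPS over control was −0.59 ± 0.41 (adjusted p 0.676), with overlap. Every LPS+bLF library was above every LPS library, and the difference of 1.46 ± 0.41 had the smallest p of that comparison among the members (unadjusted p 0.00449, adjusted p 0.684). Without the 3 fat-rich libraries it was 1.22 ± 0.29. Gstp2 shares 54.3% of its 50-base stretches with other genes, 49.1% with Gstp1, and Gstp1 shares 33.7%, so their split is uncertain. Gstp1, Gstp2 and Gstp3 lie within chr19:4035411-4059605 (GRCm38.p6). Gstm4 had 21.4, 12.0 and 15.1 FPKM in the controls, 10.9, 16.0 and 15.9 with LPS, 19.4, 18 and 13.1 with bLF and 18.6, 25.4 and 20.6 with LPS+bLF, above every LPS library (0.60 ± 0.21, unadjusted p 0.0146, adjusted p 0.684). Gstt1 had 14.6 FPKM in LPS 1, against 113 and 164 in LPS 2 and 3 and 98.2 to 148 in the controls, so its fold change of −0.48 ± 0.60 was 0.03 ± 0.35 without that library.

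Few sulfotransferases and glucuronosyltransferases reached the level for testing: 4 of 11 Sult genes and 2 of 8 Ugt genes were tested. Sult1a1, which sulfates phenols, had 45.7, 50.55 and 60.8 FPKM in the controls, 68.7, 40.9 and 35.0 with LPS, 49.05, 47.7 and 56.7 with bLF and 36.3, 62.7 and 29.3 with LPS+bLF, with overlap throughout. Sult5a1 had 23.0 FPKM in LPS 1 against 5.23 to 10.4 in the 11 other libraries, and LPS+bLF minus LPS was −0.95 ± 0.48 with LPS 1 and 0.05 ± 0.25 without it. Sult2b1, which sulfates cholesterol, had 4.35, 2.28 and 3.58 FPKM in the controls, 1.98, 4.19 and 3.57 with LPS, 3.06, 4.13 and 2.43 with bLF and 4.51, 3.34 and 10.5 with LPS+bLF; the highest value came from LPS+bLF 3, and the difference from control of 0.89 ± 0.43 was 0.24 ± 0.36 without that library. Ugt1a6b, which glucuronidates phenols, ran from 5.12 FPKM in LPS 1 to 11 in control 2 (LPS over control −0.32 ± 0.27, adjusted p 0.689); 79.8% of its 50-base stretches also occur in other genes of the Ugt1 locus.

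The second comparison asked whether lactoferrin altered the enzymes in LPS-treated lung. Most members were higher in LPS+bLF than in LPS, among them Gstm4, Gstm6 and Gstm7, Gsta2, Gstk1, Gstp2, Ces1f and Ephx1. Cyp4v3, Cyp4f16 and Cyp3a13 were lower, and no member passed the test after adjustment. The families differed: 16 of 19 Gst, 7 of 7 Ces, 4 of 4 Ephx and 11 of 17 Aldh members were higher. Of the Cyp2 members 5 of 9 were higher (median 0.02), of the Fmo 3 of 5 (0.23) and of the Cyp4 2 of 8 (−0.27). Positive log2 fold changes were seen for 54 of 80 members and negative for 26, with a median of 0.27, against −0.01 and 51.5% negative over all genes. edgeR called 0 members and 0.0% of all genes, the smallest adjusted p was 0.684, and DESeq2 (0.0516% of all genes) and limma (0.0%) also called 0 members. At an unadjusted p under 0.05, 12 members (15%) were higher, against 3.39% of all genes, and 2 (2.5%), Cyp3a13 and Cyp4v3, were lower, against 3.52%. In 15 members (18.8%, against 4.15% of all genes) every LPS+bLF library exceeded every LPS library, and in 3 (3.75%, against 4.91%) every one was lower. This comparison and the first share the 3 LPS libraries, so their opposite signs are not independent of each other.

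Single libraries moved these counts too. Without LPS 1, 52 members were higher in LPS+bLF, with 16 higher and 2 lower at an unadjusted p under 0.05 (4.74% and 4.16% of all genes). The count of 2 lower members ran from 0 without LPS+bLF 2 (1.86% of all genes) to 6 without LPS 3 (7.4%). The count of 12 was 6 without LPS 2 (3.09% of all genes) and 7 without LPS+bLF 2 (1.47%), the library with the most fat markers. Without the 3 fat-rich libraries 50 members were higher, with a median of 0.15, and with LPS 1 left out as well 44 were higher, with a median of 0.11.

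Lactoferrin alone was compared with control next. In the comparison of bLF with control, 53 members (66.2%) had a negative and 27 a positive log2 fold change. Their median was −0.09, against −0.03 and 54.6% negative over all genes. Without control 2 the split turned to 37 negative and 43 positive, with a median of 0.03. edgeR called 0 members and 0.0% of all genes, and DESeq2 (0.00737% of all genes) and limma (0.0%) called 0 members. At an unadjusted p under 0.05 only Gstp3 was higher (1 of 80, against 0.684% of all genes) and none was lower (0 of 80, against 0.663%). Among members with a mean of at least 1 FPKM, the smallest p next to Gstp3 on the higher side were those of Cyp2a5, Aldh3a1 and Gstp1, and on the lower side those of Aldh3a2 (8.06, 14.2 and 14.96 FPKM in the controls and 8.82, 9.24 and 10.7 with bLF), Ces1g, Ces1d and Aox1. The Aldh3a2 groups overlapped through control 1 (−0.39 ± 0.32, adjusted p 1.0). Cyp2a5, the coumarin-hydroxylating P450, had 5.89, 23.7 and 21.4 FPKM in the controls and 214, 7.08 and 37.1 in bLF 1, 2 and 3, and the difference of 2.29 ± 1.12 was 0.39 ± 0.98 without bLF 1. It shares 37.0% of its 50-base stretches with other genes, 28.1% with Cyp2a4.

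In mice given both agents, compared with control, 43 members (53.8%) were lower and 37 higher. Their median was −0.10, against 0.01 and 49.4% lower over all genes. With limma on log2(FPKM + 1) 52 members were lower and 28 higher, against 54.8% lower over all genes. By family, 7 of 9 Cyp2, 5 of 5 Fmo and 2 of 2 Aox members were lower, but 8 of 19 Gst, 7 of 17 Aldh and 1 of 4 Ephx. edgeR called 0 members and 0.0% of all genes, and DESeq2 (0.119% of all genes) and limma (0.0%) called 0 members. At an unadjusted p under 0.05, 3 members were lower, Cyp2d22, Cyp4b1 and Fmo2 (3.75%, against 2.15% of all genes), and 2 were higher, Gstp3 and Gstm4 (2.5%, against 2.64%). The count of 3 was 0 without control 2 (0.648% of all genes), control 3 (0.779%) or LPS+bLF 3 (0.582%), and at most 12, without control 1 (5.56%). It was also lower without LPS+bLF 2 and higher without LPS 1, LPS 3, bLF 3 or LPS+bLF 1. The count of 2 higher members was at most 6, without LPS+bLF 1 (3.61% of all genes). The median was 0.09 without control 2, 0.00 without LPS+bLF 3 and −0.24 without LPS+bLF 2. A p over the threshold does not show that a member was back at its control level.

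The interaction, the bLF difference in LPS-treated mice minus the bLF difference in untreated mice, was positive for 57 members and negative for 23 (28.7%). Over the members it had a median of 0.30, against 0.03 and 46.7% negative over all genes. Without control 2 it was positive for 46 and negative for 34, with a median of 0.10. edgeR called 0 members and 0.0% of all genes, with 0 members by DESeq2 (0.00737% of all genes) and limma (0.0%). At an unadjusted p under 0.05, 2 members were positive, Aldh3b2 and Ces1f (2.5%, against 1.33% of all genes), and none was negative (0 of 80, against 1.48%). The count of 2 positive members ran from 1, without LPS 2 (1.37% of all genes), bLF 2 (0.735%) or LPS+bLF 2 (0.575%), to 9 without LPS+bLF 3 (1.73%), and was between 3 and 8 without each of the others. The count of 0 negative members was at most 4, without LPS 3 (3.54%). Ces1f had an interaction of 3.73 ± 1.25 (adjusted p 0.999) and 2.02 ± 0.92 without LPS+bLF 2. Aldh3b2, a lipid aldehyde dehydrogenase, had 1.58, 0.21 and 0.38 FPKM in the controls, 0.06, 0.00 and 0.06 with LPS, 2.29, 0.12 and 0.21 with bLF and 0.03, 5.29 and 2.58 with LPS+bLF, so LPS+bLF 1 lay with the LPS libraries and the other 2 were the highest of the study. The fitted interaction of 5.61 ± 2.25 rests on LPS values near 0 and is no measure of size. On the negative side, among members with a mean of at least 1 FPKM, the smallest p were those of Cyp4v3 (−0.70 ± 0.34), Aldh1a2 (−2.02 ± 1.08), Sult5a1 (−1.22 ± 0.68) and Aldh16a1 (−0.80 ± 0.55), each with an adjusted p of 0.999.

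Some members were highest in the fat-rich libraries, in a share not far above that of all genes. Control 1, bLF 1 and LPS+bLF 2 were the 3 highest libraries for 7 of the 80 tested members (8.75%, against 5.61% of all tested genes): Aldh1l1, Aldh4a1, Aldh6a1, Ces1f, Cyp2e1, Ephx2 and Gstm7. In the same libraries the fat-cell hormone Adipoq stood at 120, 65.3 and 239 FPKM, against 0.00 to 4.99 elsewhere, and the brown fat uncoupler Ucp1 at 88.1, 57.4 and 158, against 0.00 to 0.20. Cardiac muscle markers were high there too, at 1070, 5370 and 4450 summed FPKM, against 75.3 to 678. Their part in the members' values was not tested.

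**Figure D3:**
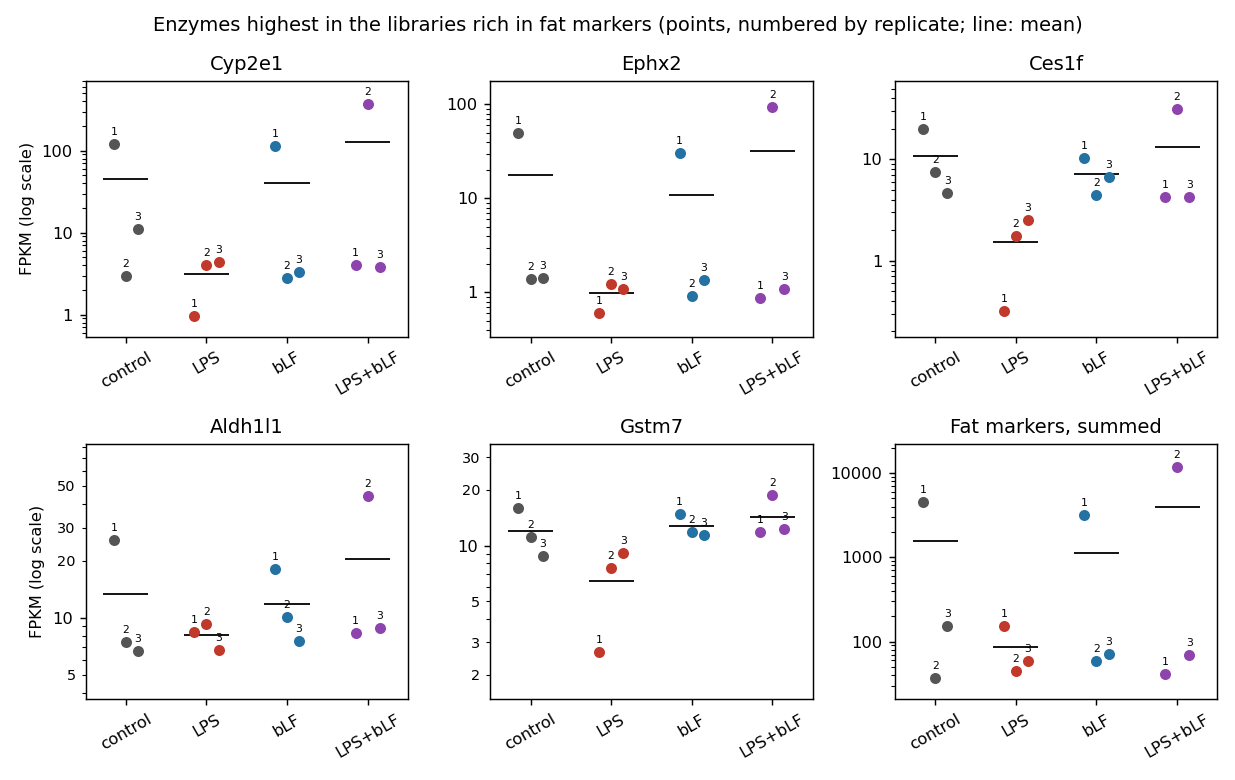
Panels plot FPKM on a log scale by group for 5 members and, at bottom right, the summed FPKM of the brown and white fat markers, with a point for each library, numbered by replicate, and a line at the group mean. Control 1, bLF 1 and LPS+bLF 2 are the highest library of their group in every panel, and no LPS library is among them.

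Cyp2e1, the ethanol-inducible P450, had 121, 114 and 371 FPKM in control 1, bLF 1 and LPS+bLF 2, and 2.94 and 11.01 in the other controls, 0.97, 3.98 and 4.43 in LPS 1, 2 and 3, 2.83 and 3.30 in the other bLF libraries and 4.07 and 3.81 in the other LPS+bLF libraries. Ephx2 had 50.2, 30.1 and 93.3 FPKM in those 3 libraries and 0.61 to 1.43 in the 9 others. As no LPS library was of this kind, fat markers and group cannot be told apart for these genes in the fit with all libraries. With all libraries the LPS over control values were −3.76 ± 2.07 for Cyp2e1 and −4.04 ± 2.11 for Ephx2, and without the 3 libraries −1.13 ± 0.60 and −0.53 ± 0.40. LPS+bLF over LPS was 5.44 ± 2.23 and 5.07 ± 2.19 with them and 0.36 ± 0.61 and −0.01 ± 0.40 without them. Aldh1l1, a folate enzyme of the family, had 25.8, 18.03 and 43.9 FPKM in those 3 and 6.66 to 10.1 in the rest, and its LPS+bLF difference went from 1.35 ± 0.69 to 0.05 ± 0.23.

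LPS+bLF 3, the library with skeletal muscle and squamous markers, was the highest of the 12 for Aldh3a1, an aldehyde dehydrogenase of surface epithelia, at 54.4 FPKM, against 13.0 and 19.7 in LPS+bLF 1 and 2, 13.5, 23.1 and 12.3 in the controls, 15.8, 8.83 and 10.8 with LPS and 44.6, 18.7 and 21.8 with bLF. The basal keratin Krt5 stood at 98.3 FPKM in it and at 7.90 in bLF 1, the second highest for both genes, and at most at 1.05 in the others. Their part in the Aldh3a1 values was not tested. LPS+bLF over LPS was 1.25 ± 0.57 for Aldh3a1 with this library and 0.42 ± 0.49 without it. Gsta1, at 5.81 FPKM in it and 0.00 to 1.86 elsewhere, and Ces1h, at 6.53 FPKM, had their highest values in the same library.

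Enzymes and partners outside the name rule were counted from 3 lists. Over all tested genes, 54.3% were lower with LPS and 51.5% were lower in LPS+bLF than in LPS. Of 17 tested redox partners and receptors, 9 were lower with LPS (median −0.06), and none passed the test. The smallest p were those of the electron carrier Cyb5a (−0.62 ± 0.28, adjusted p 0.676), of Por, the reductase that feeds all microsomal P450s, and of Pgrmc1. Por had 23.0, 74.3 and 51.5 FPKM in the controls, 12.1, 28.8 and 38.4 with LPS, 30.7, 18.1 and 38.7 with bLF and 33.2, 26.6 and 24.0 with LPS+bLF (LPS over control −0.95 ± 0.47, adjusted p 0.676). The receptor Ahr differed by −0.14 between LPS and control. Of 48 other drug-metabolizing enzymes tested, 35 were lower with LPS (median −0.23) and 38 were higher in LPS+bLF than in LPS (median 0.20), with 0 called in either. Their smallest p in LPS against control were those of the aldo-keto reductase Akr1b8, higher by 1.00 ± 0.32 (adjusted p 0.542) and at 66.6 FPKM in LPS 1 against 33.8 in LPS 2 and 3 and 20.9 to 27.2 in the controls, the paraoxonase Pon1, lower by −1.97 ± 0.83, and the quinone reductase Nqo1, lower by −1.27 ± 0.64. Of 17 tested drug transporters, 9 were lower (median −0.03) and 0 were called.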

How the data were processed

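Whole-lung RNA of 12 mice was measured as 1 library a mouse, and the values were deposited in 1 table a library. Per the file headers, the authors gave expected counts and FPKM for each gene. Per the submitters' processing notes, HISAT2 2.1.0, RSEM 1.2.8 and build mm10 were named; strand and annotation are not given in the sources used here. The deposited expected counts were rounded to whole numbers (4.12% to 5.91% of values were not whole). The 13735 genes that reached 0.5 FPKM in 3 or more libraries were fitted together over the 4 groups with edgeR 4.0.16 (quasi-likelihood test, TMM scaling, limma 3.58.1, R 4.3.3), with Benjamini-Hochberg adjustment over all tested genes and a threshold of 0.05. The scripts were tested on simulated data. Members, gene lists and the naming rule were chosen with earlier results of these data known. Named members are the 3 of highest mean FPKM in each family and, in each comparison, the 4 of smallest p in each direction, all with a mean of at least 1 FPKM; others were named after their values were seen. Gstp1, Gstp2, Gsta1, Gsta2, Cyp2a5 and the Ugt1a6 genes share sequence with near copies, measured as 50-base stretches of GENCODE M21 transcripts. Gene positions and promoters are RefSeq's on GRCm38.p6. Alternatives were DESeq2 1.42.0, other scalings and filters, limma on log2(FPKM + a pseudocount of 0.1, 1 or 5), the replicate number as a block and each library left out. Leaving out the 3 libraries high in fat markers, alone or with LPS 1, was chosen after seeing the data. The values of 1 member are not reported here.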

Additional observations from a re-analysis of the deposited data

How the results depend on the processing

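Of 943 values of 40 named results under the alternatives, 936 kept their direction and their side of the threshold, 2 came to pass it and 5, of 3 results, reversed. The 2 were those of DESeq2, which called 2 members in LPS against control, among them Ces1g (−1.76), and 139 of all genes. Leaving out 1 library moved the median log2 fold change of the members from −0.63 to −0.25 in LPS against control, from 0.15 to 0.45 in LPS+bLF against LPS, from −0.24 to 0.09 in LPS+bLF against control, from −0.13 to 0.03 in bLF against control and from 0.10 to 0.47 in the interaction. With limma on log2(FPKM + 5) the LPS median was −0.22, as a larger pseudocount shrinks the difference of low genes. Reversals were seen for Sult5a1 in LPS+bLF against LPS (−1.34 to 0.05 with 1 library left out, and 0.14 without LPS 1 and the 3 libraries high in fat markers), Aox1 in bLF against control (−1.03 to 0.06) and Cyp2a5 in bLF against control (−0.03 and −0.02 without those libraries); the cause was not tested. After the group means were subtracted, same-numbered libraries of different groups correlated by −0.69 to 0.57 over 18 pairs (median 0.04). Other-numbered ones correlated by −0.57 to 0.69 over 36 pairs (median 0.02), and 2 of 12 libraries correlated best with their own number. The numbers were thus not taken as pairs. With the replicate block 0 members were called, and the medians were −0.49 in LPS against control and 0.31 in LPS+bLF against LPS. With 3 mice a group and 8 residual degrees of freedom, a difference that misses the threshold may still exist.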
